A study of Mus musculus with 24 samples.

Results

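Transcript levels of 10 antioxidant and glutathione enzymes were followed in mouse oocytes and zygotes: Sod1, Sod2, Cat, Gpx1, Gpx4, Prdx1, Prdx2, Txn1, Gclc and Gclm. They were found by symbol among the 23235 genes of the deposited expression table, where each had 1 row. Of the 10 genes, 9 reached the expression filter of a group mean of at least 1 FPKM (fragments mapped, per length of transcript and library size) in at least 1 group and were tested with 10884 genes in all. Cat did not reach it and is described by its values.

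The groups were Cnot6l-/- mice, mice labelled Btg4-/- and wild type (WT) mice, all C57BL/6 at postnatal day 21, with 4 stages each and 2 libraries in each of the 12 groups. GV oocytes, arrested at the germinal vesicle stage, were taken 48 h after the hormone PMSG. MI oocytes, in the first meiotic division, came from 8 h of culture and MII eggs, in the second, from 16 h. Zygotes were collected 24 h after hCG, so zygotes and cultured MII eggs differ in origin as well as in stage. The labels do not describe either allele, name no promoter or Cre driver, and do not say whether the 2 libraries of a group came from separate mice. The p-values therefore measure only the spread between these libraries. The labels are also divided on the cells in a library, with 100 in the extraction protocol and 2 in the series' design. Read depth is unknown, and the values carry no counting error.

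Cnot6l encodes a deadenylase of CCR4-NOT, the complex that shortens poly(A) tails, and Btg4 encodes an adaptor that recruits this complex. A growing oocyte stores mRNA and then degrades or translates it during meiotic maturation without new transcription. The antioxidant enzymes work in a chain. Superoxide dismutases turn superoxide into hydrogen peroxide, and catalase, glutathione peroxidases and peroxiredoxins remove the peroxide. Thioredoxin returns peroxiredoxins to their reduced form, and glutamate-cysteine ligase, made of the catalytic subunit GCLC and the modifier GCLM, starts the synthesis of the glutathione that glutathione peroxidases consume. Glutathione is known to accumulate in oocytes during maturation and to serve in the remodelling of sperm chromatin.

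The 3′ ends of the members are shown because deadenylation and polyadenylation act there. Each line is a window of 30 bases on the transcribed strand of mm9, read 5′ to 3′, with the polyadenylation signal AATAAA or its variant ATTAAA in capitals.
Sod1, chr16:90226534-90226563, plus strand: atctgctaccctcaaaccATTAAActgtaa
Sod2, chr17:13210944-13210973, plus strand: agatatttggaaaatactAATAAAagcaaa
Cat, chr2:103294071-103294100, minus strand: agctctctctgcagtaacAATAAAagcgcc
Gpx1, chr9:108242634-108242663, plus strand: ggtggtttcactactaagAATAAAgtgctg
Gpx4, chr10:79519148-79519177, plus strand: ccctggctgccttgtgggAATAAAatgtag
Prdx1, chr4:116372566-116372595, plus strand: ctatttaatctgccaggaATTAAAagtgtg
Prdx2, chr8:87498175-87498204, plus strand: ccaggtctataggaaaccAATAAAgtatta
Txn1, chr4:57956247-57956276, minus strand: gggtattttaccttaataAATAAAcatggt
Gclc, chr9:77642249-77642278, plus strand: atgtttgtggtctgagaaAATAAAaaatgg
The signal AATAAA stood in the last 50 bases of 7 of the 10 genes, and AATAAA or ATTAAA in 9 of 10. Among 10843 gene ends searched the same way, 61.56% held AATAAA and 76.56% held either. The cytoplasmic polyadenylation element TTTTAT or TTTTAAT, searched on the transcribed strand in the last 100 bases, was found in 1 of 10, Sod2, against 19.19% of the gene ends. These are matches of letters at the annotated ends.

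The deposited FPKM are not shares of a fixed total. Their sum over all genes averaged 482481 at GV, 301582 at MI, 190242 at MII and 108983 in zygotes of Cnot6l-/-, and 483911, 377544, 167822 and 146144 in the group labelled Btg4-/-. In WT it averaged 497690, 159243, 98985 and 62984. The sources used here do not say how the libraries were scaled, so a lower share of a gene in the mRNA and less mRNA in all are given apart below. Cnot6l itself averaged 5.11 ± 1.15 FPKM in Cnot6l-/- GV oocytes against 49.0 ± 35.2 FPKM in WT GV oocytes (SD, n = 2 each), and it was called lower at GV, MI and MII. Btg4 mRNA averaged 2078 FPKM in the GV oocytes labelled Btg4-/- and 2305 FPKM in WT GV oocytes, and no stage passed the test, so the table does not show the loss of Btg4 and that group is called by its label. All 10 oocyte markers were found in the table, and Zp3 ranged from 13.3 to 2717 FPKM. The summed level of 10 cumulus and granulosa markers was 8.05 to 13.3 FPKM in Cnot6l-/- MII libraries, 3.08 to 5.79 in those labelled Btg4-/- and 5.02 to 5.34 in WT, and at most 27.9 in any library. That of 7 sperm markers was 17.6 to 18.0, 2.93 to 6.57 and 0.84 to 1.54 FPKM in the same MII libraries. It was higher at GV, at 65.5 to 84.3, 36.8 to 58.95 and 33.3 to 33.5 FPKM in the same genotypes. In zygotes it was 0.87 to 2.30, 2.51 to 3.04 and 1.23 to 1.82 FPKM. Ldhc reached 50.7 and Prm2 31.3 FPKM, and each other sperm marker at most 3.06. The summed level of 6 blood and immune markers was at most 2.83 FPKM in any library. The blood markers Hba-a1 and Hbb-b1 and the sperm marker Tnp1 were at 0 in all 24 libraries. The part of these markers in the results below was not tested.

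On the deposited scale most of the enzymes were lower at MI and MII than at GV in WT, and in both mutant groups fewer of them were called lower at MI. A gene was called when its adjusted p in a limma test on log2(FPKM + 1), with Benjamini-Hochberg adjustment over all 10884 genes, was under 0.05. At MI compared with GV, 8 of 9 members were called lower in WT, while 65.1% of all genes tested were called lower. In Cnot6l-/- this count was 1 of 9 against 15.0% of all genes. In the group labelled Btg4-/- it was 0 of 9, with 1.66% of all genes called either way and no member below an unadjusted p of 0.05. At MII compared with GV the counts of members called lower were 5 of 9 in Cnot6l-/-, 6 of 9 in the group labelled Btg4-/- and 8 of 9 in WT, beside 59.9%, 75.3% and 83.4% of all genes. The median log2 change of the members at MII was -1.59, -1.21 and -2.70 in the same 3 groups, and that of all genes -0.82, -1.04 and -1.37.

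The libraries were also levelled on 3677 genes that exceed 1 FPKM in each library (median-ratio scaling) or scaled to their sum. After median-ratio scaling 5 of 9 members were called lower at MI than at GV in WT, beside 30.5% of all genes, and after scaling to the sum 4 of 10, beside 18.8%. In Cnot6l-/- at MI, Txn1 and Prdx1 (-0.97) were called lower after median-ratio scaling, beside 10.6% of all genes. After scaling to the sum Txn1 was called lower there, beside 1.55%, and Gclm higher (1.31, limma adjusted p = 0.041), beside 18.2%. At MII the median-ratio counts of members called lower were 2 of 9 in Cnot6l-/-, namely Sod1 and Txn1, 3 of 9 in the group labelled Btg4-/-, namely Sod1, Gpx4 and Prdx2, and 6 of 9 in WT, beside 23.4%, 29.7% and 43.2% of all genes. After scaling to the sum they were 1, 3 and 4 of 10, beside 9.55%, 19.9% and 31.8% of all genes. On that scale Txn1 was called higher in the group labelled Btg4-/- and Prdx1 and Gclc in WT, beside 4.03% and 18% of all genes. The WT changes of Prdx1, Gpx1 and Gclc at MII were positive on both scales, and that of Gclc was called on both.

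**Figure D1:**
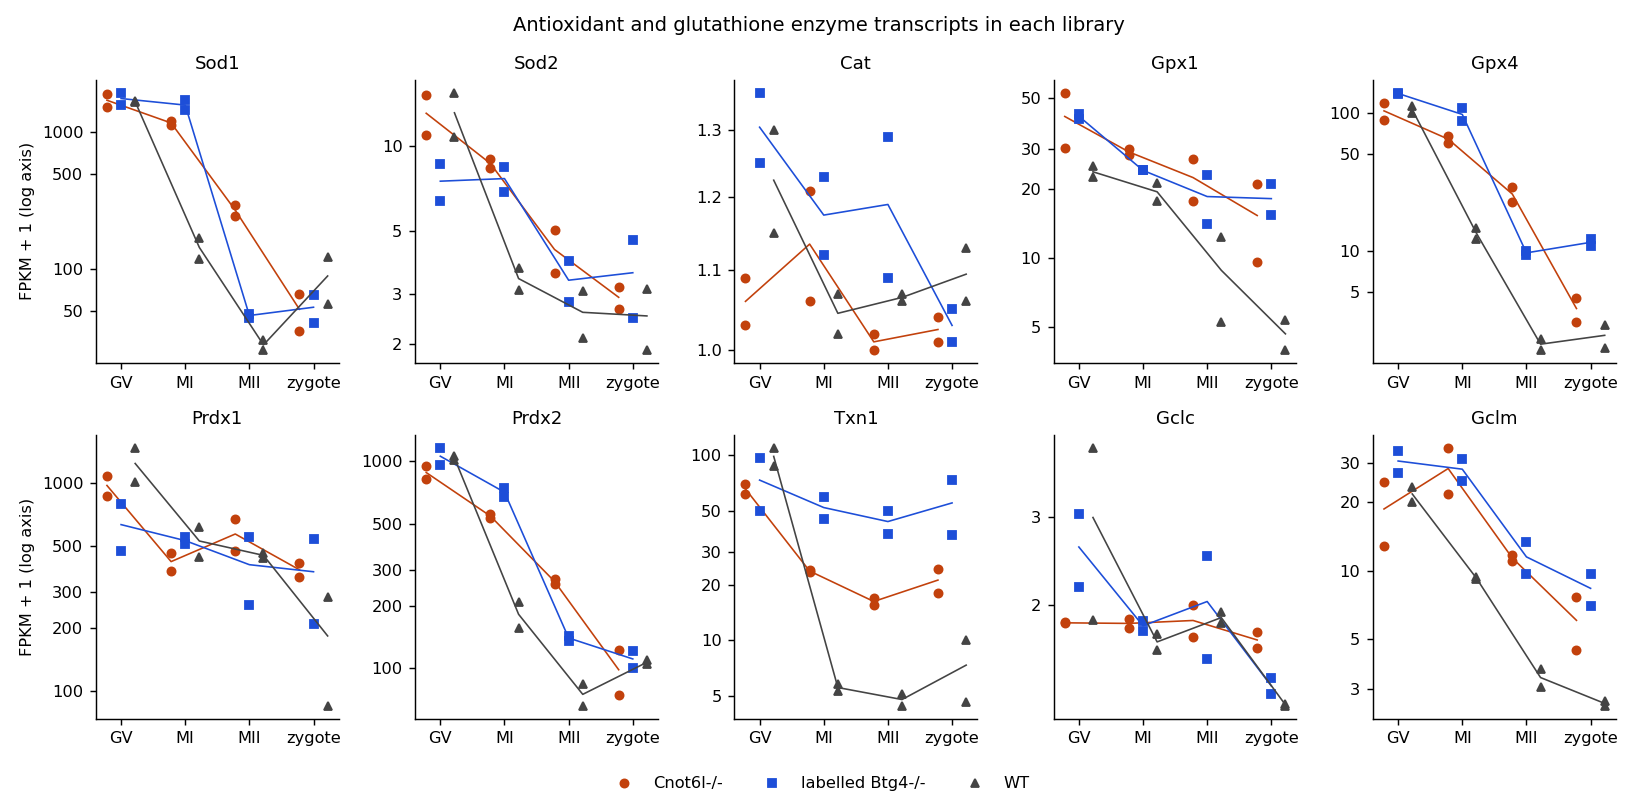
FPKM + 1 on a log axis for each of the 10 genes at GV, MI, MII and zygote, with 1 point for each library and lines joining the group means of Cnot6l-/-, the group labelled Btg4-/- and WT. Sod1, Gpx4, Prdx2 and Txn1 of WT lie below both mutant groups at MI, while Prdx1 and Gpx1 of the 3 genotypes lie closer together.

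Sod1, the cytosolic copper-zinc superoxide dismutase (chr16:90220987-90226569, plus strand), was the most abundant of the 10 transcripts by its GV mean in all 3 genotypes, and among the 9 tested its WT change by MI, -3.56 on the log2 scale, was exceeded by that of Txn1, -4.14. Cnot6l-/- libraries had 1534 and 1900 FPKM at GV, 1211 and 1133 at MI, 243 and 296 at MII, then 34.8 and 65.6 in zygotes. The libraries labelled Btg4-/- had 1583 and 1953 FPKM at GV, 1451 and 1715 at MI, 46.7 and 43.6 at MII, then 64.6 and 39.4 in zygotes. WT libraries had 1693 and 1656 FPKM at GV, 169 and 118 at MI, 24.8 and 29.6 at MII, then 122 and 55.3 in zygotes. All mutant MI libraries stood above both WT MI libraries, and the 3 genotypes did not overlap at MII. The MI mean was 68.3% of the GV mean in Cnot6l-/-, 89.6% in the group labelled Btg4-/- and 8.59% in WT.

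At MI, Sod1 was higher than in WT by 3.04 ± 0.37 in Cnot6l-/- (log2, SE, limma adjusted p = 2.3e-06) and by 3.47 ± 0.37 in the group labelled Btg4-/- (adjusted p = 4.6e-07). Both differences were also called after median-ratio scaling, at 2.1 and 2.25. By MII the mutant groups had parted. Sod1 was still higher than in WT in Cnot6l-/- eggs by 3.26 (adjusted p = 2.8e-06), while in eggs labelled Btg4-/- the difference of 0.72 did not pass (adjusted p = 0.17). Set against each other, Cnot6l-/- eggs had more Sod1 than those labelled Btg4-/- by 2.55 ± 0.37 (log2, SE, limma adjusted p = 0.00021). Cnot6l-/- zygotes then had less Sod1 than Cnot6l-/- MII eggs, by a log2 change of -2.46 (adjusted p = 9.9e-05).

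WT zygotes had more Sod1 than WT MII eggs by 1.57 (log2, adjusted p = 0.023), the sole member called between these stages in WT as deposited, where 1.04% of all genes were called higher. This call was lost without WT MII library 1 (adjusted p = 0.14), WT MII library 2 (0.11) or WT zygote library 1 (0.23). After median-ratio scaling Sod1, Prdx2 and Txn1 were called higher and Prdx1 and Gclc lower in WT zygotes than in WT MII eggs, and after scaling to the sum only the first 3 of these were called. Zygotes of Cnot6l-/- and of the group labelled Btg4-/- differed from WT zygotes in Sod1 by -0.77 and -0.69, which did not pass (limma adjusted p = 0.27 and 0.21). Without WT zygote library 2 the second of these became -1.26 (adjusted p = 0.049). After median-ratio scaling Sod1 was called lower than in WT zygotes in both, with differences of -1.43 (adjusted p = 0.0026) and -1.59 (adjusted p = 0.001).

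Sod2, the manganese enzyme of mitochondria, was present at far lower levels. It had 14.1 and 9.91 FPKM at GV, 7.99 and 7.32 at MI, 4.07 and 2.56 at MII, then 2.19 and 1.67 in zygotes of Cnot6l-/-. In libraries labelled Btg4-/- it had 5.40 and 7.60 FPKM at GV, 5.88 and 7.44 at MI, 2.92 and 1.81 at MII, then 3.67 and 1.48 in zygotes. WT had 14.4 and 9.73 FPKM at GV, 2.72 and 2.1 at MI, 2.09 and 1.10 at MII, then 2.13 and 0.91 in zygotes. At MI both mutant groups lay above WT without overlap, by 1.35 ± 0.34 in Cnot6l-/- (log2, SE, limma adjusted p = 0.0022) and 1.17 ± 0.34 in the group labelled Btg4-/- (adjusted p = 0.0057). The second call was lost without WT MI library 3 or MI library 3 labelled Btg4-/- (adjusted p = 0.05 each), and neither call held after median-ratio scaling (adjusted p = 0.091 and 0.61). At MII the differences of 0.74 and 0.38 did not pass (adjusted p = 0.086 and 0.46).

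Cat, the catalase that breaks down hydrogen peroxide directly, was at 0.36 FPKM or less in all 24 libraries. Cnot6l-/- libraries had 0.03 and 0.09 FPKM at GV and 0.00 and 0.02 at MII, GV libraries labelled Btg4-/- had 0.36 and 0.25, and WT libraries had 0.15 and 0.30 at GV and 0.07 and 0.06 at MII. With 2 decimals deposited and no read counts, these values cannot be told from a few reads. At GV the other enzymes of peroxide removal among the members, Gpx1, Gpx4, Prdx1 and Prdx2, were at 21.45 FPKM or more in each of the 6 libraries.

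Gpx4, which reduces lipid peroxides in membranes and is a structural protein of the sperm midpiece (chr10:79516255-79519184, plus strand), had the largest ratio of GV to MII means in WT among the 9 members tested. Cnot6l-/- libraries had 88.3 and 117 FPKM at GV, 67.3 and 59.8 at MI, 21.4 and 28.1 at MII, then 2.04 and 3.58 in zygotes. The libraries labelled Btg4-/- had 135 and 139 FPKM at GV, 86.0 and 107 at MI, 8.31 and 9 at MII, then 11.2 and 9.87 in zygotes. WT libraries had 99.1 and 110 FPKM at GV, 13.7 and 11.1 at MI, 0.90 and 1.30 at MII, then 0.96 and 1.91 in zygotes. The 3 genotypes did not overlap at MI or MII, and zygotes labelled Btg4-/- lay above all other zygotes. In WT the MII mean was 95.2-fold lower than the GV mean, a larger ratio than the 61.7-fold of Sod1, while on the log2(FPKM + 1) scale, which compresses low values, the changes were -5.66 and -5.90.

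Gpx4 was higher than in WT at MI by 2.27 ± 0.27 in Cnot6l-/- (log2, SE, limma adjusted p = 1.8e-06) and by 2.86 ± 0.27 in the group labelled Btg4-/- (adjusted p = 1.3e-07). At MII it was higher by 3.61 in Cnot6l-/- eggs (adjusted p = 4.9e-08) and by 2.21 in eggs labelled Btg4-/- (adjusted p = 1.4e-05), and the difference between the mutant groups, 1.41, passed as well (adjusted p = 0.0022). In zygotes the order of the mutant groups was the other way round. Cnot6l-/- zygotes differed from WT zygotes by 0.64 (adjusted p = 0.18), zygotes labelled Btg4-/- were higher than WT by 2.27 (adjusted p = 2e-05), and Cnot6l-/- zygotes were lower than those labelled Btg4-/-, with a difference of -1.62 ± 0.27 (log2, SE, limma adjusted p = 0.00063). All these called differences of Gpx4 at MI, at MII and in zygotes were also called after median-ratio scaling and after scaling each library to its sum.

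Gpx1, the cytosolic glutathione peroxidase, moved less and with more spread. It had 29.2 and 51.7 FPKM at GV, 27.2 and 28.9 at MI, 16.7 and 26.1 at MII, then 8.57 and 20.1 in zygotes of Cnot6l-/-. In libraries labelled Btg4-/- it had 41.5 and 39.6 FPKM at GV, 23.1 and 23.1 at MI, 13.0 and 22.1 at MII, then 14.3 and 20.0 in zygotes. WT had 21.5 and 24.1 FPKM at GV, 20.2 and 16.6 at MI, 4.27 and 11.4 at MII, then 2.95 and 4.36 in zygotes. Its WT change at MI, -0.29, did not pass (adjusted p = 0.55), and the WT change at MII was -1.56 ± 0.42 (log2, SE, limma adjusted p = 0.0029). That change was 0.22 after median-ratio scaling and 0.61 after scaling to the sum, neither called, and -0.94 without WT MII library 1 (adjusted p = 0.075).

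Eggs of Cnot6l-/- had more Gpx1 than WT eggs by 1.44 (log2, limma adjusted p = 0.01), a call that was lost without WT MII library 1 (adjusted p = 0.18) or Cnot6l-/- MII library 2 (0.088). In eggs labelled Btg4-/- the difference from WT was 1.15 (adjusted p = 0.05, not called), and it was 1.77 without WT MII library 2 (adjusted p = 0.013). Zygotes had more Gpx1 than WT zygotes by 1.63 in Cnot6l-/- (adjusted p = 0.022) and by 1.96 in the group labelled Btg4-/- (adjusted p = 0.0029). The first of these was lost without WT zygote library 1 (adjusted p = 0.12), WT zygote library 2 (0.058) or Cnot6l-/- zygote library 2 (0.37). Median-ratio scaling ended all of these calls, with adjusted p from 0.14 to 0.3.

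Prdx1, an abundant cytosolic peroxiredoxin, had no called difference between genotypes at any stage on the deposited scale. It ranged from 352 to 1080 FPKM over the 8 Cnot6l-/- libraries, from 208 to 790 over the 8 labelled Btg4-/- and from 83.8 to 1474 over the 8 WT libraries. At MI the Cnot6l-/- libraries had 460 and 376 FPKM, those labelled Btg4-/- had 509 and 547, and the WT libraries 611 and 440, and at MII the same groups had 668 and 468, 549 and 259, and 462 and 434 FPKM. At MII both Cnot6l-/- libraries lay above both WT libraries, and the libraries labelled Btg4-/- overlapped with those of Cnot6l-/- and of WT. Over the 4 stages the log2 differences from WT ran from -0.34 to 1.30 in Cnot6l-/- and from -1.0 to 1.12 in the group labelled Btg4-/-. WT zygotes were divided, with 282 and 83.8 FPKM. Without WT zygote library 1, Prdx1 was called higher than in WT zygotes in Cnot6l-/- (2.17, adjusted p = 0.019) and in the group labelled Btg4-/- (1.99, adjusted p = 0.013), and it was called lower in WT zygotes than in WT MII eggs (-2.40, adjusted p = 0.035).

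In WT, Prdx1 was lower at MI than at GV, with a change of -1.23 ± 0.52 (log2, SE, limma adjusted p = 0.046), and at MII, with a change of -1.45 (adjusted p = 0.017). Both calls were lost without WT GV library 1 (adjusted p = 0.23 and 0.12) and without either library of the later stage. After scaling, these changes turned positive, 0.03 and 0.49 by median ratio and 0.42 and 0.88 by sum. The last of these was called higher (limma adjusted p = 0.034), the reverse of the deposited call, and the others were not called. Relative to the other mRNA, Prdx1 at MI was then called lower than in WT, with a median-ratio difference of -1.26 in Cnot6l-/- (adjusted p = 0.0059) and of -1.20 in the group labelled Btg4-/- (adjusted p = 0.0097). At MII it was also called lower in eggs labelled Btg4-/- (-0.98, limma adjusted p = 0.04), and not in Cnot6l-/- eggs (-0.51, adjusted p = 0.24). RefSeq lists pseudogenes named after Prdx1, Prdx2, Gpx4 and Txn1, so reads of these genes could have been divided with near copies.

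Prdx2, a second cytosolic peroxiredoxin, stood apart from Prdx1 in its course. Cnot6l-/- libraries had 817 and 946 FPKM at GV, 557 and 529 at MI, 255 and 269 at MII, then 72.9 and 122 in zygotes. The libraries labelled Btg4-/- had 958 and 1156 FPKM at GV, 670 and 746 at MI, 135 and 143 at MII, then 121 and 99.2 in zygotes. WT libraries had 1018 and 1056 FPKM at GV, 208 and 155 at MI, 65.0 and 82.8 at MII, then 108 and 104 in zygotes. Both mutant groups lay above WT at MI and MII, and the genotypes overlapped in zygotes. Prdx2 was higher than in WT at MI by 1.59 ± 0.27 in Cnot6l-/- (log2, SE, limma adjusted p = 8e-05) and by 1.97 in the group labelled Btg4-/- (adjusted p = 7.6e-06). After median-ratio scaling the first of these was 0.65 and no longer called (adjusted p = 0.062), and the second was 0.75 (adjusted p = 0.036). After scaling to the sum they were 0.66 (adjusted p = 0.027) and 0.72 (adjusted p = 0.021), both called.

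At MII, Prdx2 was higher than in WT by 1.82 in Cnot6l-/- eggs (log2, limma adjusted p = 4.3e-05) and by 0.91 in eggs labelled Btg4-/- (adjusted p = 0.018). The smaller of these was lost without WT MII library 1 (adjusted p = 0.15) or without either MII library labelled Btg4-/- (0.08 and 0.072), and it was 0.19 after median-ratio scaling (adjusted p = 0.64). The larger was 0.999 after that scaling (adjusted p = 0.0078). Cnot6l-/- eggs also had more Prdx2 than those labelled Btg4-/- by 0.91 (adjusted p = 0.036), a call lost when any 1 of the 4 libraries was left out (adjusted p from 0.13 to 0.14) and after median-ratio scaling (0.052). Zygotes labelled Btg4-/- differed from WT zygotes by 0.05 as deposited (adjusted p = 0.94), and after median-ratio scaling Prdx2 was called lower in them (-0.85, adjusted p = 0.046).

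Txn1, the cytosolic thioredoxin (chr4:57956245-57969283, minus strand), was the member in which the group labelled Btg4-/- stood furthest from WT at MII. Cnot6l-/- libraries had 68.9 and 60.3 FPKM at GV, 23.0 and 22.4 at MI, 14.5 and 15.9 at MII, then 17.0 and 23.3 in zygotes. In libraries labelled Btg4-/- it had 49.1 and 95.5 FPKM at GV, 44.1 and 58.1 at MI, 49.1 and 36.5 at MII, then 72.3 and 36.1 in zygotes. WT libraries had 108 and 86.8 FPKM at GV, 4.79 and 4.32 at MI, 3.43 and 4.14 at MII, then 9.03 and 3.65 in zygotes. From MI on, the 3 genotypes kept the same order without overlap at each stage, with the group labelled Btg4-/- highest and WT lowest. The MII mean was 23.5% of the GV mean in Cnot6l-/-, 59.2% in the group labelled Btg4-/- and 3.88% in WT.

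At MI, Txn1 was higher than in WT by 2.09 ± 0.39 in Cnot6l-/- (log2, SE, limma adjusted p = 0.00017) and by 3.22 in the group labelled Btg4-/- (adjusted p = 1.6e-06). At MII the differences were 1.76 (adjusted p = 0.0014) and 3.18 (adjusted p = 1.3e-05), and in zygotes 1.61 (adjusted p = 0.014) and 2.93 (adjusted p = 4.4e-05). These 6 differences were also called after both scalings. That of Cnot6l-/- zygotes was lost without WT zygote library 2 (adjusted p = 0.21) or Cnot6l-/- zygote library 2 (0.17).

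Between the mutant groups, Cnot6l-/- had less Txn1 at MII, with a difference of -1.42 ± 0.39 (log2, SE, limma adjusted p = 0.021). The difference in zygotes was -1.32 (adjusted p = 0.03), and that at MI, -1.13, did not pass (adjusted p = 0.083). The MII call was lost when any 1 of the 4 libraries was left out (adjusted p from 0.053 to 0.14), and the zygote call without Cnot6l-/- zygote library 1 (adjusted p = 0.21) or zygote library 1 labelled Btg4-/- (0.33). As deposited, Txn1 was also the sole member called lower in Cnot6l-/- at MI than at GV (-1.47, adjusted p = 0.015). That call was lost without Cnot6l-/- GV library 1 (adjusted p = 0.098) or either Cnot6l-/- MI library (0.071 and 0.1). In the group labelled Btg4-/- the change at MII since GV was -0.68 (adjusted p = 0.12), and it was 0.84 after scaling to the sum (adjusted p = 0.023). The GV libraries of that group were divided, with 49.1 and 95.5 FPKM, and without the first of them the deposited change was -1.16.

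Gclc, the catalytic subunit that starts glutathione synthesis, was near the expression filter. It had 0.84 and 0.85 FPKM at GV, 0.88 and 0.80 at MI, 1 and 0.73 at MII, then 0.64 and 0.77 in zygotes of Cnot6l-/-. Libraries labelled Btg4-/- ranged from 0.33 to 2.05 FPKM, and WT libraries ranged from 0.26 to 3.12 FPKM. The highest WT value belonged to GV library 1, and the other WT GV library had 0.87 FPKM. No difference of Gclc from WT passed at any stage as deposited, and after median-ratio scaling Gclc was called lower in Cnot6l-/- eggs than in WT eggs (-0.49, adjusted p = 0.037). Its WT change at MI, -0.72 (log2, limma adjusted p = 0.028), became -0.15 without WT GV library 1 (adjusted p = 0.63), and the call was also lost without either WT MI library (0.063 and 0.12). Without WT GV library 2, Gclc was called lower in Cnot6l-/- GV oocytes than in WT GV oocytes (-1.16, adjusted p = 0.0039). Its WT change at MII, -0.56 (adjusted p = 0.067), was 0.53 after median-ratio scaling (adjusted p = 0.02) and 1.17 after scaling to the sum (adjusted p = 0.015).

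Gclm, the modifier subunit that raises the activity of GCLC, stood higher and differed between genotypes. Cnot6l-/- libraries had 11.8 and 23.6 FPKM at GV, 33.8 and 20.8 at MI, 10.04 and 10.7 at MII, then 3.45 and 6.61 in zygotes. The libraries labelled Btg4-/- had 32.9 and 26.1 FPKM at GV, 24.0 and 30.1 at MI, 8.67 and 12.3 at MII, then 5.99 and 8.71 in zygotes. WT libraries had 19.1 and 22.5 FPKM at GV, 8.15 and 8.38 at MI, 2.06 and 2.68 at MII, then 1.65 and 1.53 in zygotes. From MI on, both mutant groups lay above WT without overlap. Cnot6l-/- and the group labelled Btg4-/- overlapped with each other from MI to the zygote.

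At MI, Gclm was higher than in WT by 1.57 ± 0.33 in Cnot6l-/- (log2, SE, limma adjusted p = 0.00059) and by 1.59 in the group labelled Btg4-/- (adjusted p = 0.00047). At MII both differences were 1.76 (adjusted p = 0.00039 and 0.00071). In zygotes they were 1.17 (adjusted p = 0.038) and 1.67 (adjusted p = 0.0016). The call in Cnot6l-/- zygotes was lost without WT zygote library 1 (adjusted p = 0.097), WT zygote library 2 (0.17) or Cnot6l-/- zygote library 2 (0.44). After median-ratio scaling the MII differences were still called, at 1.14 (adjusted p = 0.037) and 1.24 (adjusted p = 0.036), and those of MI and of zygotes were not. Cnot6l-/- zygotes had less Gclm than Cnot6l-/- MII eggs (-0.97, adjusted p = 0.038), a call lost without either MII library (0.12 and 0.11) or zygote library 1 (0.37).

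**Figure D2:**
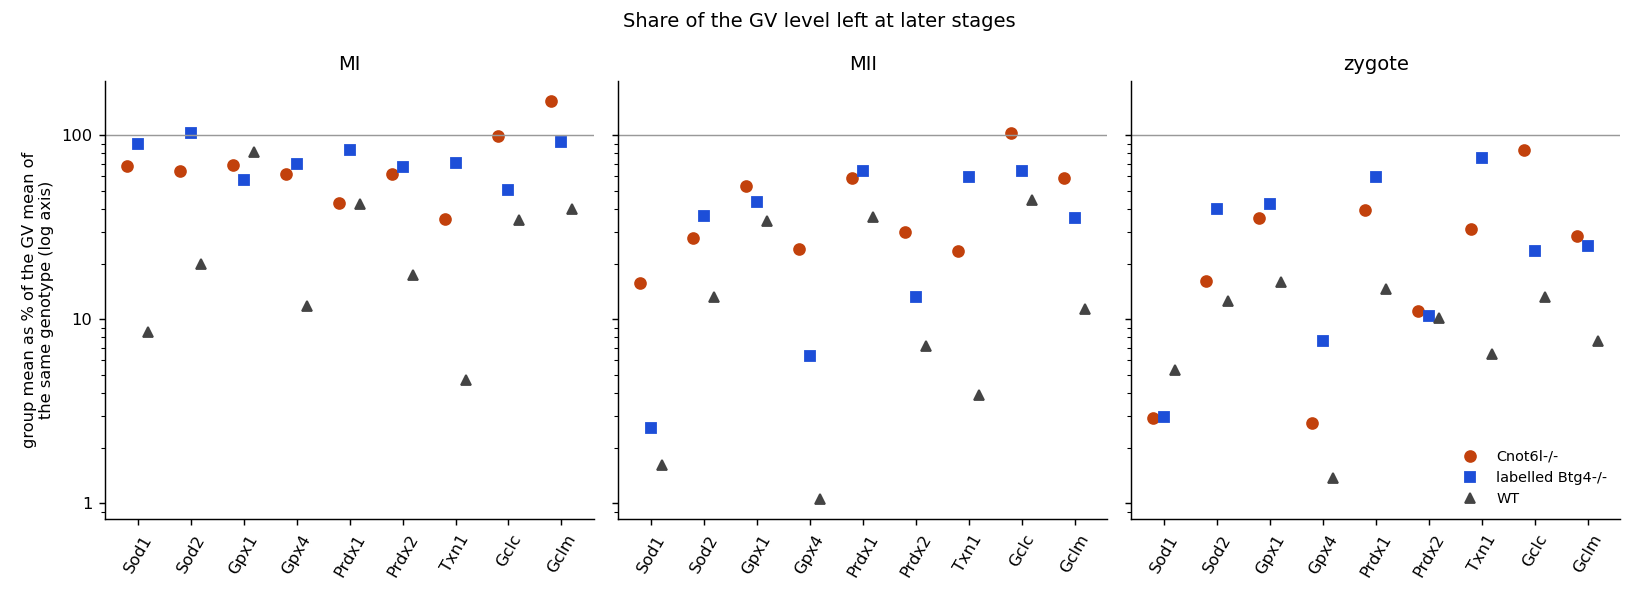
Group mean of each gene as a percent of the GV mean of the same genotype, on a log axis, at MI, MII and zygote for Cnot6l-/-, the group labelled Btg4-/- and WT. At MI, Sod1 stood at 68.3%, 89.6% and 8.59% of its GV mean in these 3 groups and Gpx4 at 62.0%, 70.2% and 11.9%.

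Counted over the 9 members tested, none was called different from WT at GV, and calls appeared from MI on. At GV, 0 of 9 were called in Cnot6l-/- against WT (9.09% of all genes were called either way) and 0 of 9 in the group labelled Btg4-/- (7.43%), with 1 member at an unadjusted p under 0.05 in each. At MI, 6 of 9 were called higher in Cnot6l-/- (60.3% of all genes) and 6 of 9 in the group labelled Btg4-/- (68.7%), and these were Sod1, Sod2, Gpx4, Prdx2, Txn1 and Gclm in both. The median log2 difference of the 9 at MI was 1.57 and 1.59 in the 2 groups, beside 0.87 and 0.99 for all genes. Both comparisons share the WT libraries. After median-ratio scaling 3 members were higher and 1 lower in Cnot6l-/-, beside 35.8% and 11% of all genes. The group labelled Btg4-/- then had 4 higher and 1 lower, beside 32.5% and 9.82%, and the lower one was Prdx1 in both. The scaled shares of members called higher were thus near those of all genes.

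At MII, 6 of 9 members were called higher in Cnot6l-/- eggs than in WT eggs, where 44.3% of all genes were called higher. In eggs labelled Btg4-/- the count was 4 of 9, namely Gpx4, Prdx2, Txn1 and Gclm, beside 28.3% of all genes. After median-ratio scaling these counts were 5 higher and 1 lower in Cnot6l-/- (34.3% and 8.69% of all genes), and 3 higher and 1 lower in the group labelled Btg4-/- (21.8% and 6.55%). In zygotes 3 of 9 were called higher in Cnot6l-/- (8.00% of all genes), which were Gpx1, Txn1 and Gclm, and 4 of 9 in the group labelled Btg4-/- (21.5%), which were these 3 and Gpx4. After median-ratio scaling the zygote counts were 1 higher and 1 lower in Cnot6l-/- (8% and 7.91% of all genes), and 2 higher and 2 lower in the group labelled Btg4-/- (11.7% and 3.04%). After scaling to the sum, with 10 members tested, 1 was higher and 3 lower in Cnot6l-/- (6.2% and 9.43% of all genes). In the group labelled Btg4-/- 2 were then higher and 3 lower (6.5% and 5.34%). All 3 calls in Cnot6l-/- zygotes on the deposited scale depended on both WT zygote library 2 and Cnot6l-/- zygote library 2.

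**Figure D3:**
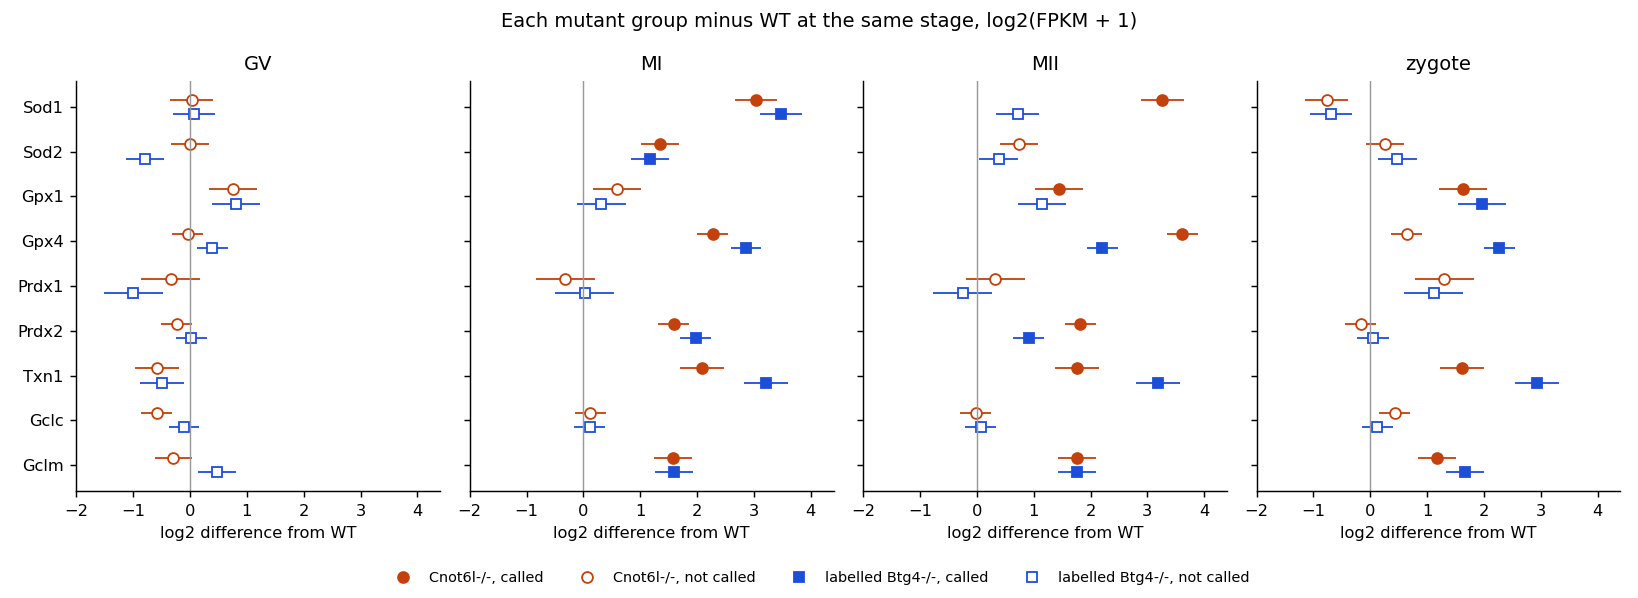
Difference in log2(FPKM + 1) between each mutant group and WT at the same stage, with its SE, for the 9 genes tested. Filled points passed the limma test at an adjusted p under 0.05 and open points did not. No point is filled at GV, and Gpx4 reached 3.61 in Cnot6l-/- eggs and Txn1 3.18 in eggs labelled Btg4-/-.

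Set against each other, the mutant groups had no member called different at GV (18.3% of all genes were called either way, and 2 members had an unadjusted p under 0.05) or at MI (10.1%, with 2 members). At MII, Sod1, Gpx4 and Prdx2 were higher and Txn1 lower in Cnot6l-/- eggs than in eggs labelled Btg4-/-, while 11.0% of all genes were higher and 1.77% lower. In zygotes Gpx4 and Txn1 were lower in Cnot6l-/-, beside 12.8% of all genes. With any 1 of the 4 MII libraries left out, the 4 calls at MII became 2. The number of all genes called between the mutant groups at MII fell as well in these fits. Between MII and the zygote, 4 of 9 members were called lower in Cnot6l-/- (28.7% of all genes), namely Sod1, Gpx4, Prdx2 and Gclm. After median-ratio scaling Sod1 and Gpx4 were still called lower, beside 18.1% of all genes, while Prdx2 (adjusted p = 0.059) and Gclm (0.61) were not, and Txn1 was called higher in Cnot6l-/- zygotes than in Cnot6l-/- MII eggs (1.04, adjusted p = 0.018). Scaling to the sum gave the same calls, with Txn1 at 1.21 (adjusted p = 0.0032). In the group labelled Btg4-/- 0 of 9 were called (1.32% either way, and no member at an unadjusted p under 0.05).

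The changes since GV were also compared between genotypes directly. The change from GV to MI was higher than in WT for 6 of 9 members in Cnot6l-/- (44.4% of all genes) and for 5 of 9 in the group labelled Btg4-/- (45.4%). Among these, the mutant change was itself positive for Gclm in Cnot6l-/- (0.63) and Sod2 in the group labelled Btg4-/- (0.04), neither called. The change from GV to MII was higher than in WT for 5 of 9 members in Cnot6l-/- (24.1%) and for 2 of 9, Gpx4 and Txn1, in the group labelled Btg4-/- (13.3%). These contrasts share the GV and WT libraries with those above. After median-ratio scaling the counts were 2 and 2 for MI, beside 18.7% and 18.2% of all genes, and these were Sod1 and Txn1 in both groups. For MII they were 3, namely Sod1, Gpx4 and Txn1, in Cnot6l-/- (15% of all genes) and 1, Txn1, in the group labelled Btg4-/- (12.4%).

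Scaling shifts the scale for all genes. The median log2 change of all genes at MII since GV in WT was -1.37 as deposited, -0.37 after median-ratio scaling and -0.20 after scaling to the sum. That of the difference of Cnot6l-/- from WT was 0.87 at MI and 0.56 at MII as deposited, and 0.28 and 0.29 after median-ratio scaling, while that of the group labelled Btg4-/- was 0.99 and 0.38 as deposited and 0.22 and 0.14 after it. Beyond these shifts, Sod1, Gpx4, Prdx2 and Txn1 were called lower in WT MI oocytes and MII eggs than at GV under each of the 3 scales. Of the 9 members at MII since GV in WT, 8 were lower as deposited, 6 were lower and 1 higher after median-ratio scaling. With Cat then passing the filter, 4 of 10 were lower and 2 higher after scaling to the sum, beside 31.8% and 18% of all genes.

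**Figure D4:**
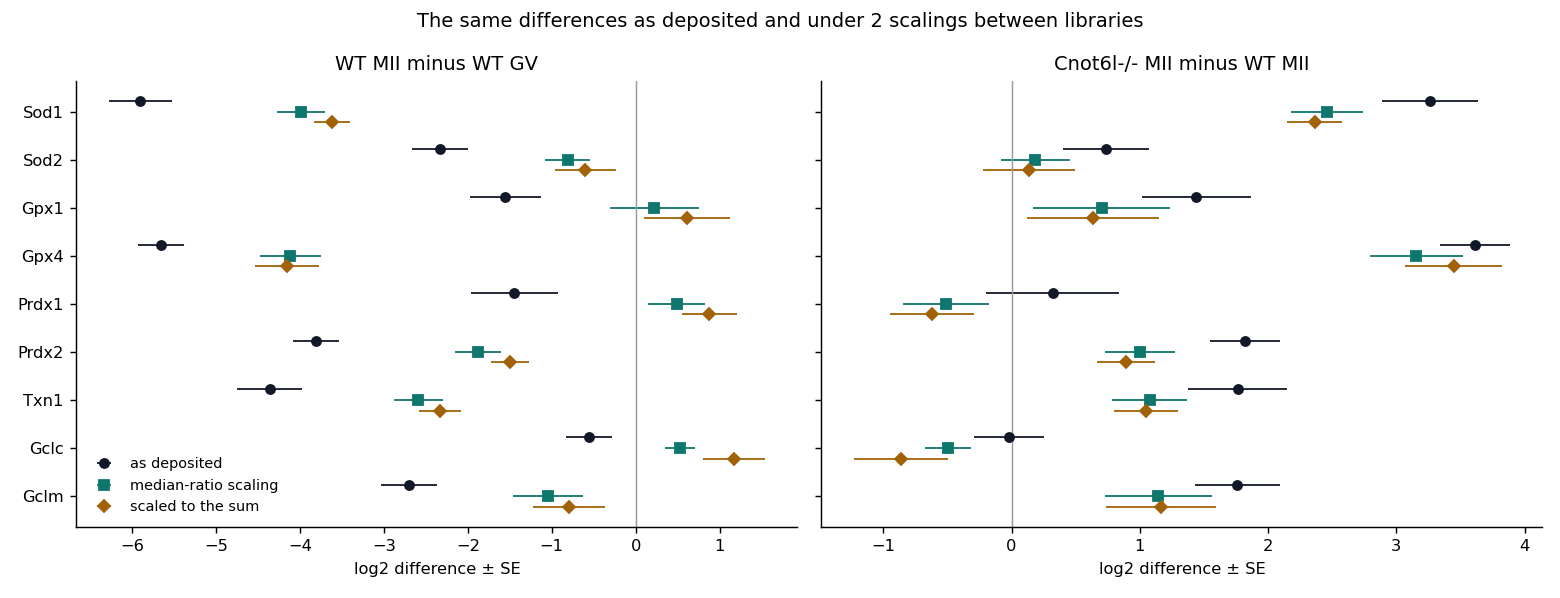
Log2 change of each gene on the deposited scale, after median-ratio scaling and after scaling to the sum, for MII eggs since GV in WT and for Cnot6l-/- against WT MII eggs. Sod1 and Gpx4 keep their sign on the 3 scales, while the WT changes since GV of Gpx1, Prdx1 and Gclc are negative as deposited and positive after both scalings.

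Added over the 10 genes, the deposited FPKM averaged 3811 at GV, 2283 at MI, 1176 at MII and 575 in zygotes of Cnot6l-/-. The group labelled Btg4-/- had 3744, 3025, 671 and 628, and WT had 4215, 898, 567 and 392. As a share of all summed FPKM, the 10 genes made up 0.79% at GV and 0.618% at MII in Cnot6l-/-. The group labelled Btg4-/- had 0.774% at GV and 0.397% at MII, and WT had 0.85% and 0.574%. Sod1, Prdx1 and Prdx2 together supplied between 81.92% and 97.58% of the sum in each of the 24 libraries, so the total mainly follows these 3 genes. Fewer cells in a library and less RNA in each cell cannot be told apart in these values.

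**Figure D5:**
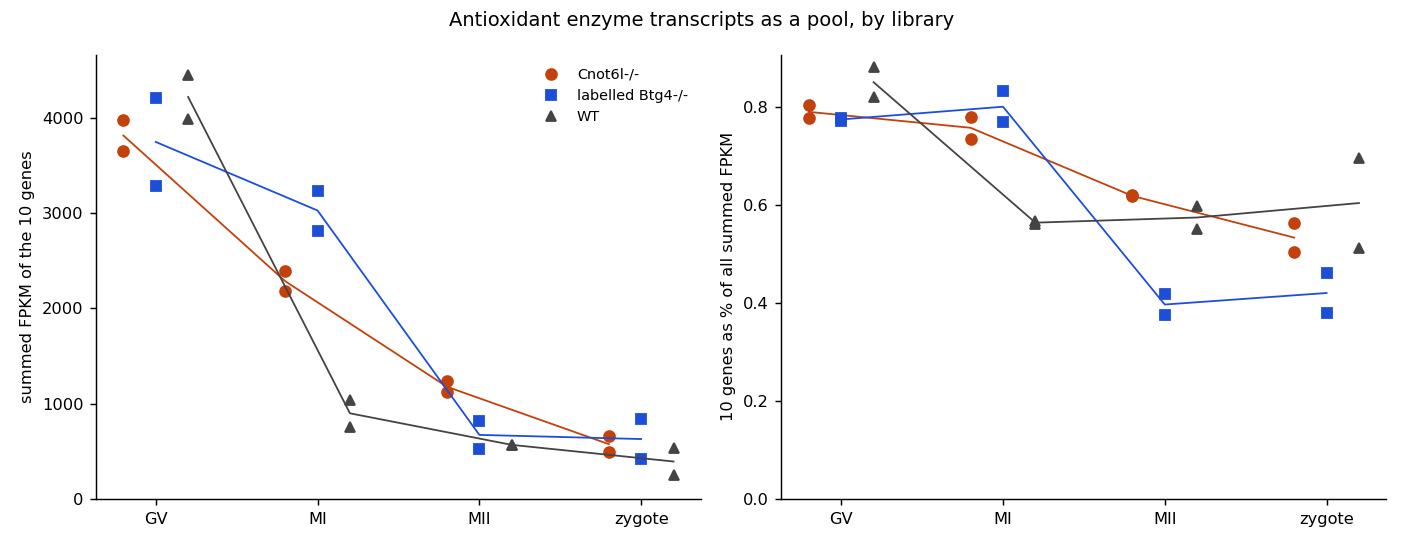
Summed FPKM of the 10 genes by stage and their percent of all summed FPKM, with 1 point for each library and the group means of Cnot6l-/-, the group labelled Btg4-/- and WT. At MI the sums averaged 2283, 3025 and 898 FPKM in these 3 groups.

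The members varied together to different degrees over the 24 libraries, which share stage and scale. Pearson's r of log2(FPKM + 1) was 0.981 for Prdx2 with Sod1, 0.966 for Gpx4 with Prdx2 and 0.943 for Gclm with Gpx4, and it was lowest for Gclc with Gpx1, at 0.426. Among 3353 genes that averaged 10 FPKM or more, those most like Sod1 were Tubb4b (r = 0.993), Copz1 (0.993) and Mrps18b (0.991). Those most like Gpx4 were Eif3g (0.996), Tbcb (0.994) and Use1 (0.992). For Gclc, the highest were Ccnyl1 (0.877), Ankrd17 (0.834) and Zfp664 (0.831), which is lower than for Sod1 or Gpx4.

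A wider list of 79 antioxidant and glutathione genes, of which 56 were tested, was read beside the members. In WT, 48 of the 56 were called lower at MI than at GV (65.1% of all genes) and 52 at MII (83.4%), and none was called higher. Against WT at MI, 37 were higher and 2 lower in Cnot6l-/- (60.3% of all genes higher), and 40 were higher in the group labelled Btg4-/- (68.7%) with none lower. At MII, 31 were higher and 2 lower in Cnot6l-/- (44.3% of all genes higher), and 21 higher and 1 lower in the group labelled Btg4-/- (28.3%). The counts at MI against WT were thus close to the shares of all genes. After median-ratio scaling, which left 51 of the list tested, 4 were higher and 27 lower at MI and 5 higher and 27 lower at MII since GV in WT, where 30.5% and 43.2% of all genes were lower. Against WT at MI, 22 were then higher and 6 lower in Cnot6l-/- (35.8% of all genes higher) and 24 higher and 5 lower in the group labelled Btg4-/- (32.5%). At MII they were 28 higher and 4 lower in Cnot6l-/- (34.3%) and 16 higher and 2 lower in the group labelled Btg4-/- (21.8%). On the deposited scale the genes lower in Cnot6l-/- were Ggct, an enzyme of glutathione breakdown, and Gsto2, an omega-class glutathione transferase, at both stages, and the gene lower in the group labelled Btg4-/- was Gstp2, a pi-class transferase.

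All 4 of the other peroxiredoxins tested, Prdx3 to Prdx6, were called lower than at GV in WT, both at MI and at MII as deposited. After median-ratio scaling Prdx4 at MI (adjusted p = 0.055) and Prdx6 at MII (adjusted p = 0.12) no longer passed. Prdx3, the mitochondrial peroxiredoxin, averaged 8.97 FPKM in Cnot6l-/- eggs, 29.7 FPKM in eggs labelled Btg4-/- and 0.72 FPKM in WT eggs, and was higher than in WT by 2.58 (limma adjusted p = 1.4e-05) and 4.18 (adjusted p = 3.7e-07). Prdx5 averaged 21.2, 8.80 and 1.49 FPKM in the same eggs, so the order of the mutant groups was the other way round. Its differences from WT were 3.14 (limma adjusted p = 4.5e-07) and 1.96 (adjusted p = 0.00012). Those of Prdx3 and Prdx5 were also called after both scalings.

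Of the 9 thioredoxin and glutaredoxin genes tested, 7 were higher in Cnot6l-/- than in WT at MI and 7 at MII, and 7 and 6 were higher in the group labelled Btg4-/-. Of all genes, 60.3% and 44.3% were higher in Cnot6l-/- at these stages and 68.7% and 28.3% in the group labelled Btg4-/-. Txnrd1, the cytosolic reductase that recharges TXN1, averaged 13.7 FPKM in Cnot6l-/- eggs, 5.54 in eggs labelled Btg4-/- and 2.88 in WT eggs. It was higher in Cnot6l-/- by 1.92 (limma adjusted p = 0.0001), and the difference of 0.72 in the group labelled Btg4-/- did not pass (adjusted p = 0.1). Glrx5, a mitochondrial glutaredoxin for iron-sulfur clusters, averaged 76.0, 19.5 and 3.59 FPKM in the same eggs, and was higher by 4.04 in Cnot6l-/- (adjusted p = 7.8e-07) and by 2.11 in the group labelled Btg4-/- (adjusted p = 0.00088). The called differences of Txnrd1 and Glrx5 were called after both scalings too.

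Ccs, the chaperone that loads copper into SOD1, averaged 2.46 FPKM in Cnot6l-/- eggs, 0.38 in eggs labelled Btg4-/- and 0.26 in WT eggs. As with Sod1, it was higher than in WT in Cnot6l-/- (1.45, limma adjusted p = 3e-06) and did not pass in the group labelled Btg4-/- (0.13, adjusted p = 0.65). Of 15 glutathione transferase genes tested, 14 were called lower in WT at MII than at GV (83.4% of all genes). At MII 8 were higher and 1 lower than WT in Cnot6l-/- and 4 higher and 1 lower in the group labelled Btg4-/-, beside 44.3% and 28.3% of all genes higher, so these counts were near the shares of all genes. Gsta4, which conjugates products of lipid peroxidation, had the lowest WT change among them at MI (-5.08). Of the 8 genes of glutathione synthesis, recycling, breakdown and cystine supply tested, 3 were higher and 1 lower than WT in Cnot6l-/- eggs. In eggs labelled Btg4-/- 0 of these 8 were called. Of 10 regulators and induced oxidoreductases tested, 3 were higher in Cnot6l-/- eggs and 4 in eggs labelled Btg4-/-. Of all genes, 44.3% were higher in Cnot6l-/- eggs and 28.3% in eggs labelled Btg4-/-.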

How the data were processed

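RNA of mouse oocytes and zygotes was sequenced from Smart-Seq2 libraries cut with Tn5, per the labels' protocols. The authors deposited FPKM with 2 decimals for 23235 genes in 24 libraries, and read counts are not part of that table, so the depth is unknown and precision rests on the spread between 2 libraries. CASAVA 1.8, TopHat2 2.0.11, Bowtie2 2.1.0, Cufflinks 2.2.1 and mm9 are named per the submitters' processing notes. Tables of 1 library each were left out, because many of their lines carry the fields of another table. MI columns were assigned to their groups only, since their numbers differ from those of the titles.

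log2(FPKM + 1) of 10884 genes entered 1 model of 12 group means (limma 3.58.1 under R 4.3.3, lmFit and trended eBayes), which left 12 residual degrees of freedom and gave 25 comparisons with two-sided moderated tests. Because 1 was added before the log, the changes of low genes are understated. The fit was tested on simulated data. Alternatives were median-ratio scaling, scaling to the sum, 0.1 as pseudocount, all genes without a filter, a fit limited to the groups compared, a block for the library number, and each library left out in turn, where the library that remains is taken to vary as the other groups do. Strand and the treatment of multiply mapped reads are not given in the sources used here.

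The members and lists were chosen with earlier results of these data known. All 10 members are named in each comparison, and from the wider list the text names genes among the 3 highest or 3 lowest called changes with at least 10 FPKM or those that complete an enzyme family. Ggct, Gsto2 and Gstp2 are named because so few were lower, after their values were known. Gene starts in the table count from 0. Sequences were read from the mm9 genome at the gene ends given in the deposited table. Gencode vM1 served only to find where its starts count from. Tables and figures were handled in Python 3.11.15 (pandas 2.3.3, numpy 2.4.6, matplotlib 3.10.9).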

Additional observations from a re-analysis of the deposited data

Results flagged for a closer look

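The change since GV differed between genotypes for the following genes, by a limma test of the difference itself with adjustment over all 10884 genes. In each case the WT change was the more negative, and the values are log2 differences of the change in the mutant group minus that in WT. All use 2 libraries in each of 4 groups.

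For the change from GV to MI, the difference in Cnot6l-/- was 3.01 for Sod1 (adjusted p = 0.00023), 1.35 for Sod2 (0.029), 2.31 for Gpx4 (0.00015), 1.83 for Prdx2 (0.0011), 2.67 for Txn1 (0.00086) and 1.86 for Gclm (0.0042). The Sod2 difference was lost without WT GV library 1, WT MI library 3, Cnot6l-/- GV library 2 or either Cnot6l-/- MI library, with adjusted p from 0.058 to 0.12. In the group labelled Btg4-/- it was 3.40 for Sod1 (adjusted p = 7.4e-05), 1.96 for Sod2 (0.0031), 2.47 for Gpx4 (7.7e-05), 1.95 for Prdx2 (0.00062) and 3.71 for Txn1 (4.8e-05). After median-ratio scaling and after scaling to the sum, Sod1 and Txn1 were still called in both groups and the others were not, with median-ratio adjusted p from 0.077 to 0.38 in Cnot6l-/- and from 0.075 to 0.17 in the group labelled Btg4-/-.

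For the change from GV to MII, the difference in Cnot6l-/- was 3.24 for Sod1 (adjusted p = 0.00029), 3.66 for Gpx4 (9e-06), 2.06 for Prdx2 (9e-04), 2.34 for Txn1 (0.0047) and 2.05 for Gclm (0.0042). In the group labelled Btg4-/- it was 1.82 for Gpx4 (adjusted p = 0.0042) and 3.68 for Txn1 (3e-04). After median-ratio scaling Prdx2 (adjusted p = 0.052) and Gclm (0.15) in Cnot6l-/- and Gpx4 in the group labelled Btg4-/- (1.49, adjusted p = 0.064) were no longer called. After scaling to the sum Prdx2 was called (adjusted p = 0.03), and Gclm (0.15) and this Gpx4 difference (1.72, adjusted p = 0.053) were not.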

How the results depend on the processing

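As deposited, 9 members were tested, and 10 after scaling to the sum and without the filter. Counts of members called are set against the deposited scale. After median-ratio scaling (9823 genes tested) they were 5 in place of 8 for MI since GV in WT, 5 in place of 1 for WT zygotes against MII, 2 in place of 1 for MI and 2 in place of 5 for MII since GV in Cnot6l-/-, and 3 in place of 6 for MII since GV in the group labelled Btg4-/-. Among all genes these counts were 4493 in place of 7172, 1953 in place of 463 and 2211 in place of 2547. The remaining ones were 2534 in place of 6524 and 3077 in place of 8202. After scaling to the sum (13092 genes tested) the first 4 member counts were 4, 3, 2 and 1, beside 4852, 2753, 2582 and 1763 of all genes. For the differences in change against WT they were 2 in place of 6 (Cnot6l-/-, MI), 3 in place of 5 (MII, median ratio), 2 in place of 5 (labelled Btg4-/-, MI) and 1 in place of 2 (MII), with 2, 2 and 1 after scaling to the sum. Among all genes the median-ratio counts for these differences were 2084, 1545, 2252 and 1451, in place of 4882, 2697, 4960 and 1514. The cause was not tested.

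Scaling also turned signs. Those of values called before or after it are listed, median ratio first. In WT since GV, Prdx1 was 0.029 and 0.42 at MI and 0.49 and 0.88 at MII. Gpx1 was 0.22 and 0.61 and Gclc 0.53 and 1.17 at MII, and by sum Gclc was 0.27 and Gclm 0.32 at MI. In the group labelled Btg4-/- MII eggs since GV gave Sod2 0.053, Gpx1 0.27, Txn1 0.84 and Gclm 0.033 by sum, Prdx1 was -1.20 and -1.24 against WT at MI, and Prdx2 -0.85 and -1.16 in zygotes.

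Without the filter the counts in WT were 6 for MI and 7 for MII since GV and 0 for zygotes against MII. They were 3 for Cnot6l-/- zygotes against MII, 1 for Cnot6l-/- against WT zygotes and 5 for the Cnot6l-/- difference in change at MI. Between the mutant groups they were 1 at GV, 3 at MII and 1 in zygotes. All 23235 genes were then tested, so raw counts do not compare with those of 10884. In the same order, 7803, 10295, 352, 2645, 685, 4948, 2650, 1180 and 1211 of all genes were called. The WT calls since GV lost were Prdx1 at MI (limma adjusted p = 0.11) and MII (0.052) and Gclc at MI (0.077). With a pseudocount of 0.1 the count for MI since GV in Cnot6l-/- was 0, with 280 of all genes in place of 2547. Against WT it was 5 in eggs labelled Btg4-/- (4343 in place of 3112). For the difference in change at MI in Cnot6l-/- it was 5 (4412 in place of 4882). That at MII labelled Btg4-/- had 3 (2051 in place of 1514). Brackets give all-gene counts in the main fit and in fits of only the groups compared, which can test fewer genes. In the latter, members called were 0 for WT zygotes against MII (463 to 45) and 5 for Cnot6l-/- MI since GV (2547 to 3934). Cnot6l-/- zygotes against MII had 2 (3128 to 2249). Against WT they were 0 in Cnot6l-/- zygotes (916 to 429) and 0 in zygotes labelled Btg4-/- (2347 to 137). Between the mutant groups they were 6 at MI (1094 to 4481), 1 at MII (1392 to 151) and 0 in zygotes (1579 to 676). Cnot6l-/- MII since GV had 6 (6524 to 5771) and Cnot6l-/- MI against WT 7 (6706 to 7652). In the group labelled Btg4-/- members called were 3 for MII against WT (3112 to 2677) and 6 for the difference in change at MI (4960 to 4840).

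The labels do not say that a library number marks a shared mouse or day, and not every pair of groups deviated together, so the numbers were not taken as pairs. Deviations of same-numbered libraries correlated over 0.1 in 28 of 39 pairs of groups (median r = 0.41), from 0.28 to 0.71, while the pairs with GV labelled Btg4-/- and those within MI were between -0.31 and 0.01. With the number as a replicate block the count was 1 at GV and 2 at MI between the mutant groups. It was 4 for the difference in change of MII in the group labelled Btg4-/-. Among all genes these counts were 2125, 2890 and 1824, in place of 1987, 1094 and 1514. The member count was 6 in place of 5 for Cnot6l-/- MII since GV and 7 in place of 6 for Cnot6l-/- against WT at MI and at MII. It was 5 in place of 4 for MII labelled Btg4-/- against WT and 3 in place of 4 between the mutant groups at MII. All genes called in these comparisons were 6832, 7968, 5226, 3401 and 1449, in place of 6524, 6706, 4891, 3112 and 1392. Gpx1 gained its call in 3 of these (adjusted p = 0.011 in eggs labelled Btg4-/-) and Sod2 in 1, and Prdx2 lost it in the last (0.068). The other member counts with a block did not move.

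With 1 library left out, the counts ranged from 6 to 8 (MI) and 6 to 9 (MII) since GV in WT, 0 to 1 for WT zygotes, 0 to 1, 5 to 7 and 3 to 4 for the successive Cnot6l-/- stages and 4 to 6 for MII labelled Btg4-/-. Against WT they ranged from 0 to 1, 6 to 6, 5 to 6 and 0 to 3 in Cnot6l-/- (GV, MI, MII, zygote) and 5 to 6, 3 to 5 and 4 to 5 in the group labelled Btg4-/- (MI, MII, zygote). Between the mutant groups they were 0 to 1 at GV, 2 to 2 at MII and 1 to 2 in zygotes, and for the differences in change 5 to 7, 5 to 6, 5 to 6 and 2 to 2. Of 1044 member values with a library left out, some lost and some gained their call. Among values called with or without that library, 0 turned sign, and sign changes of uncalled values were not counted. Among all genes, the count for WT MII since GV was 9080, and 5699 after median-ratio scaling.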
